A study of Mus musculus with 4 samples.

Results

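CC chemokines are small secreted proteins that draw leukocytes along a concentration gradient by binding receptors of the Ccr family, which signal through G proteins. Here 10 of their genes were followed (Ccl2, Ccl3, Ccl4, Ccl6, Ccl7, Ccl9, Ccl11, Ccl17, Ccl22 and Ccl24), picked by gene symbol from the 31054 features of each count matrix. Ccl2 and Ccl7 act on Ccr2, the receptor that brings classical monocytes out of the marrow and into tissue. Ccl3 and Ccl4, the macrophage inflammatory proteins, draw monocytes, T cells and NK cells, and Ccl6 and Ccl9 are rodent ligands of Ccr1. Ccl11 and Ccl24 are eotaxins, which act on eosinophils through Ccr3, and Ccl17 and Ccl22 bind Ccr4 on helper and regulatory T cells.

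The data were 4 single-cell RNA libraries from lungs of male C57BL/6 mice that were 19 months old when a treatment of 1 month began. In 2 libraries the mice had received BPTES, a small molecule, and in 2 they had received DMSO, its vehicle. Lungs were digested with Liberase for 1 hour, and each library mixed 20000 sorted CD45-negative with 9000 sorted CD45-positive cells, so that shares of cells across these gates were set by the mixing. Whether a library holds cells of 1 mouse or of several is not stated, and p-values therefore measure the spread between libraries, which may be technical in part.

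After filtering, 14407 to 18860 cells a library remained, 63895 in all, with medians of 13906 to 15750 molecules (unique molecular identifiers, UMIs) a cell. Clusters were made without any chemokine ligand gene and named from fixed marker genes. The ending "-like" marks names taken from RNA only. A further 7 clusters (7125 cells, 11.15%) stayed without a name. Of 28 named classes, 23 had at least 20 cells in every library and were tested. Alveolar macrophage-like, mesothelial-like, club-like, plasmacytoid dendritic-like and platelet-like cells were too few in at least 1 library, so their values are given as levels only. Pairs of libraries shared 75 to 121 cell barcodes (0.456 to 0.680% of the smaller library). Levels are UMIs summed over the cells of a class in a library and scaled to counts per 1000000 of that sum (CPM), given in the order BPTES replicates 1 and 2, then DMSO replicates 1 and 2. With 3′ counting, a CPM does not scale with transcript length.

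Few of the 23 tested classes led for these genes. Interstitial macrophage-like cells led for Ccl2, Ccl7 and Ccl24, NK-like cells for Ccl3 and Ccl4, and conventional DC2-like cells for Ccl17 and Ccl22. Neutrophil-like cells led the tested classes for Ccl6, although the few alveolar macrophage-like cells, not tested, had a higher mean level; classical monocyte-like cells led for Ccl9 and adventitial fibroblast-like cells for Ccl11. These leading classes were the same when the 2 richest cells of each class and library were left out, and by the share of cells with a UMI after every cell was thinned to 3000 UMIs. By the unthinned share, which grows with depth, classical monocyte-like cells came first for Ccl2 and Ccl6. All of these are descriptions with no test between classes.

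**Figure D1:**
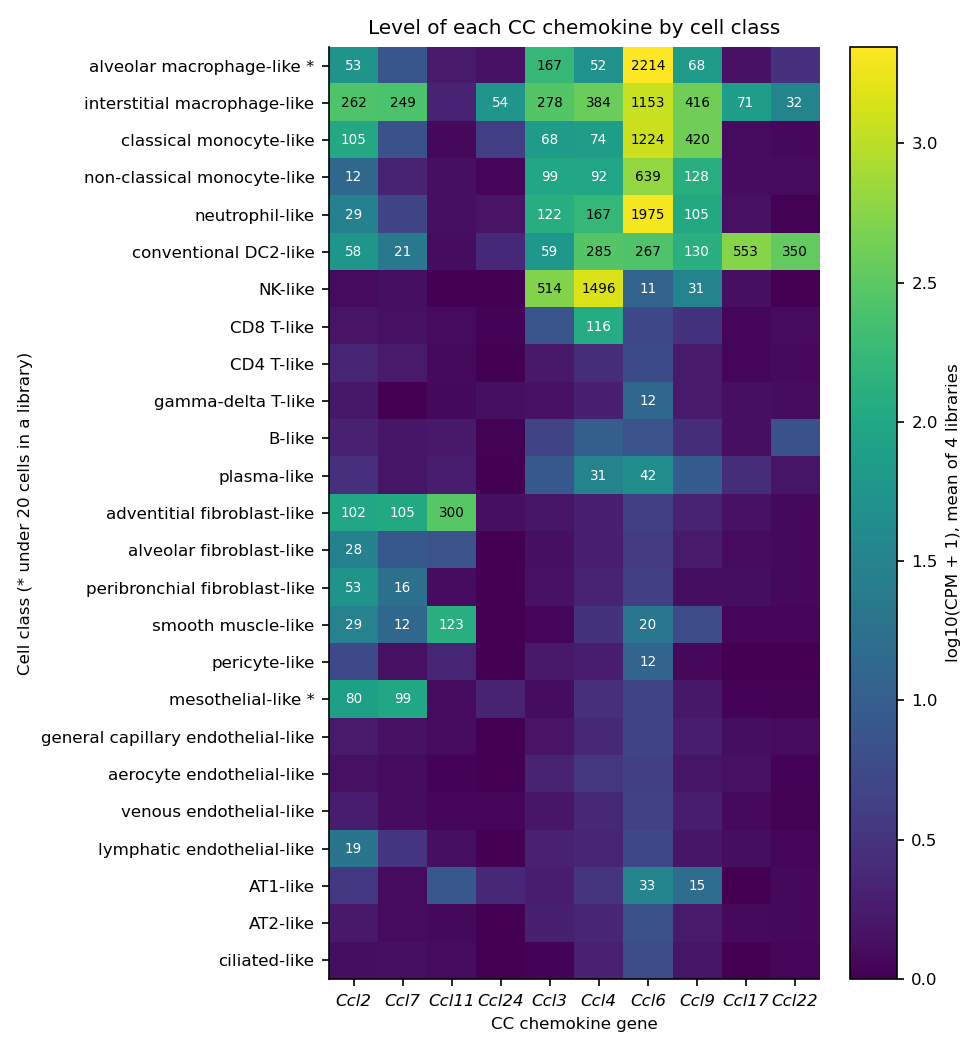
Level of the 10 CC chemokine genes (columns) in 25 cell classes (rows), as the colour of log10(CPM + 1) of the mean over 4 libraries, with the mean CPM written where it is at least 10. An asterisk marks the 2 classes shown that had under 20 cells in a library. Ccl6 covers all myeloid classes, whereas Ccl11, Ccl17, Ccl22 and Ccl24 stand out in 1 or 2 rows.

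Classes that are not a known source of a gene give a floor for these levels, in which free RNA and remaining doublets cannot be told apart. B-like cells, which are not a known source of Ccl2, Ccl7, Ccl11 or Ccl24, held 0.543 to 1.54 CPM of Ccl2, 0.109 to 1.06 of Ccl7, 0.328 to 1.46 of Ccl11 and at most 0.133 of Ccl24. General capillary endothelial-like cells held 0.376 to 0.674 CPM of Ccl3, 1.23 to 1.45 of Ccl4, 3.42 to 4.48 of Ccl6, 0.586 to 1.10 of Ccl9, 0.204 to 0.470 of Ccl17 and 0.180 to 0.306 of Ccl22. The median depth was 11705 UMIs a cell in the B-like and 12439 in the capillary class. Some named classes, tested or not, stood in every library above 3 times the highest of these values. They numbered 10 for Ccl2, 10 for Ccl3, 11 for Ccl4, 7 for Ccl6, 5 for Ccl7 and 7 for Ccl9. There were 3 for Ccl11, 1 for Ccl17, 2 for Ccl22 and 3 for Ccl24. B-like cells also held Ccl6, at 11.68, 5.59, 4.02 and 3.45 CPM, and Ccl9, at 3.71, 1.73, 0.709 and 0.790 CPM. Both were higher in both BPTES libraries. With B-like cells as the floor, the numbers of classes were 6 for Ccl6 and 7 for Ccl9.

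Between BPTES and DMSO, no level of these genes passed the main test. The test was edgeR's quasi-likelihood test, run in each class on summed counts, with Benjamini-Hochberg adjustment over all genes of the class and a call at an adjusted p under 0.05. Of the 230 pairs of gene and class, 103 passed the filter on low counts, and 0 of these 103 were called. In the same fits 0.14% of all pairs of gene and class were called. At an unadjusted p under 0.05 there were 30 pairs, against 11.6% of all pairs. The BPTES and DMSO libraries did not overlap in 46 pairs (BPTES higher in 32, lower in 14), against 43.2% of all pairs, so that this share was near the background. DESeq2 gave an adjusted p for 73 of the 103 pairs and called 5 of them, where it called 1.46% of all pairs to which it gave one. These 5 were Ccl2 in classical monocyte-like cells, Ccl3 and Ccl4 in non-classical monocyte-like cells, Ccl3 in interstitial macrophage-like cells and Ccl7 in neutrophil-like cells. The last of these passed the filter mainly through the DMSO libraries, where it is high, and is a description with no test. The median log2 fold change of the 103 pairs was 0.18, and that of all genes and classes was -0.0030. Some of the 103 pairs passed the filter only through the libraries of 1 group, where the gene is high. Among them were Ccl17 and Ccl22 in alveolar fibroblast-like cells and Ccl9 in AT1-like cells, all high with BPTES. The counts of pairs by unadjusted p and by overlap and the median are therefore descriptions with no test. Some of the calls made with 1 library left out are given with the results. Others, among them calls in B-like and lymphatic endothelial-like cells, are not. Of all pairs, those fits called 1.48 and 0.331% without BPTES replicates 1 and 2, and 0.483 and 1.16% without DMSO replicates 1 and 2.

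The Ccr2 ligand Ccl2 was shared between macrophages, monocytes and fibroblasts, and the Ccr2 ligand Ccl7 mainly between macrophages and fibroblasts. In interstitial macrophage-like cells, the C1q-bearing macrophages of the lung's connective tissue, Ccl2 was at 128.3, 228, 284 and 408 CPM, and the lowest value was that of BPTES replicate 1. Classical monocyte-like cells followed with 144, 110.1, 75.6 and 89.2 CPM. Adventitial fibroblast-like cells, which form the cuffs around airways and large vessels, had 43.8, 62.7, 195 and 105 CPM. The ranges of these 3 classes overlap, so that over the 4 libraries their order is not beyond the spread. DC2-like cells had 32.0 to 84.9 CPM, peribronchial fibroblast-like cells 26.5 to 119 and alveolar fibroblast-like cells 17.9 to 52.0. Because alveolar fibroblast-like cells were so many, they still held 19.95% of all Ccl2 UMIs in the mean of the libraries, beside 19.8% in classical monocyte-like, 18.4% in adventitial fibroblast-like and 17.9% in interstitial macrophage-like cells. No class held most of the Ccl2 UMIs.

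Ccl7 was narrower. Interstitial macrophage-like cells had 133.7, 244, 254 and 365 CPM and adventitial fibroblast-like cells 37.4, 111, 210.0 and 62.3 CPM, and these classes held 36.4% and 31.8% of its UMIs. Classical monocyte-like cells, so high in Ccl2, held only 2.36% of the Ccl7 UMIs. Mesothelial-like cells, of the lining of the lung, were too few to be tested and had 0, 0, 258.9 and 135.9 CPM of Ccl7. In DMSO replicate 1, where they were most numerous, they held 26.4% of the Ccl7 UMIs. The genes Ccl2 (GRCm38 chr11:82035571-82037453, plus strand) and Ccl7 (chr11:82045712-82047525, plus strand) lie 8.26 kb apart with no coding gene between them. In interstitial macrophage-like cells, 165 of the 188 cells with a Ccl7 UMI also had one of Ccl2 (87.8%), where 42.1% of all cells of the class had one. In classical monocyte-like cells it was 65 of 80 (81.2%), beside 42.5% of all cells. Cells deep in UMIs show both genes more often, and this was not separated here. The gene whose levels over 23 classes were most like those of Ccl7 was Ccl2 (Pearson r = 0.90 on log2(CPM + 1), among 14254 genes), and those most like Ccl2 were Abca9 (0.92), Mmp19 (0.92) and Tubb6 (0.92). In the GENCODE annotation Ccl2 overlaps the gene Gm17268, and how the authors assigned reads that fall on both is not given in the sources used here.

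Sub-clustering the 795 interstitial macrophage-like cells, again without chemokine ligand genes, placed much of both genes in a small set of cells. A sub-cluster of 94 cells held 40.2% of the class's Ccl2 and 47.3% of its Ccl7. Apart from chemokines it was led by Cd163, a scavenger receptor for haemoglobin, with Gas6 and the mannose receptor gene Mrc1. Its Ccl2 stood at 802, 1388, 1374 and 1335 CPM and its Ccl7 at 836, 1776, 1352 and 1491 CPM, so that for both genes the groups overlapped inside it and BPTES replicate 1 was the low library. Of its cells, 97.9% had a UMI of Mrc1 and 68.1% one of Folr2, both markers of the class. Another sub-cluster of 193 cells, led by Cadm1, Tanc2 and Col14a1, had 275 CPM of Ccl2, and this came mostly from BPTES replicate 2 (80.5, 565, 241 and 242 CPM). The 104 cells of a sub-cluster led by the matrix gene Fn1 and the arginase gene Arg1 had 29.6 CPM. Smaller sub-clusters were led by genes of T, B, neutrophil and endothelial cells, so the class was not pure.

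**Figure D2:**
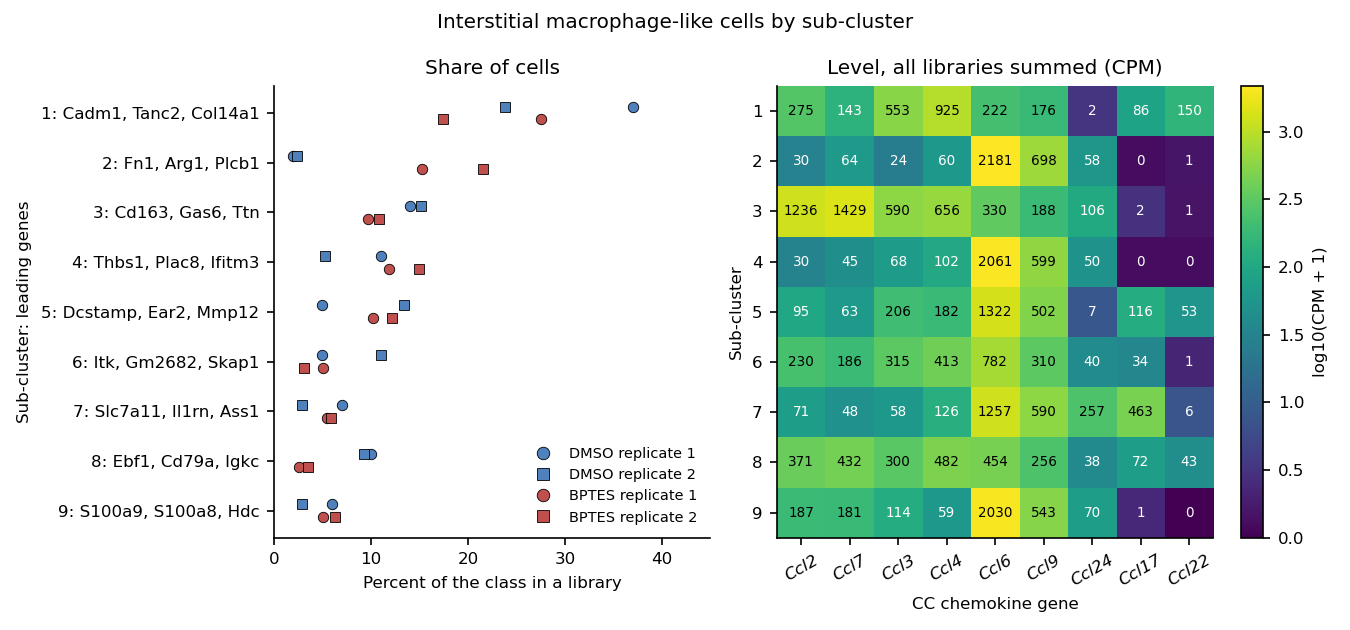
The 9 largest sub-clusters of interstitial macrophage-like cells, numbered by size and labelled by leading genes other than chemokine ligands. Left, percent of the class's cells in each library that belong to the sub-cluster. Right, CPM of 9 chemokine genes with the 4 libraries summed, coloured by log10(CPM + 1). Ccl2 and Ccl7 peak in sub-cluster 3, Ccl4 in sub-cluster 1 and Ccl6 in sub-clusters 2, 4 and 9. The share of sub-cluster 2 is above 15% in both BPTES libraries and under 2.5% in both DMSO libraries.

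For Ccl2, the treatment comparison went in different directions in different classes, and none was called by edgeR. In classical monocyte-like cells both BPTES libraries were above both DMSO libraries, with a log2 fold change of 0.65 (SE 0.13, unadjusted p = 0.00148, edgeR adjusted p = 0.112). DESeq2 called the same difference (adjusted p = 0.000618), and edgeR called it without BPTES replicate 2 (adjusted p = 0.0130) and without DMSO replicate 2 (adjusted p = 0.0116). In this class 0.197% of all genes were called, and 24% were higher in both BPTES libraries than in both DMSO libraries. Thinned to equal depth, 18.7 and 18.5% of BPTES cells and 15.4 and 12.95% of DMSO cells had a Ccl2 UMI. The summed level of the class's own 6 markers was 4605 and 4716 CPM with BPTES beside 4255 and 4419 CPM with DMSO, and that of the 4 DC2 markers 79.5 and 71.1 against 53.9 and 59.3 CPM. Both were higher with BPTES, and their part in the Ccl2 difference was not tested.

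In non-classical monocyte-like cells, which patrol the inside of vessels, Ccl2 was low, with 18.8, 8.12, 11.6 and 10.2 CPM. The groups overlapped (log2 fold change 0.36, SE 0.36, edgeR adjusted p = 0.839), and without BPTES replicate 1 the sign turned (-0.39). With doublets kept it turned as well (-0.26). The share of genes called in this class was 0%.

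In interstitial macrophage-like cells Ccl2 was lower in both BPTES libraries (log2 fold change -0.93, SE 0.28, edgeR adjusted p = 0.210), and the value ran from -0.55 without BPTES replicate 1 to -1.41 without BPTES replicate 2. The Cd163-led sub-cluster, the richest in Ccl2, made up 9.75 and 10.8% of this class with BPTES and 14.0 and 15.1% with DMSO, and the part of this in the difference was not tested. Ccl2 was also lower with BPTES in adventitial fibroblast-like cells (-1.46, SE 0.33, adjusted p = 0.222) and in peribronchial fibroblast-like cells (-1.38, SE 0.46, adjusted p = 0.357). In the peribronchial cells the DMSO libraries lay far apart at 33.8 and 119 CPM, and DMSO replicate 1 was close to the BPTES libraries at 26.5 and 31.3. Without DMSO replicate 1 the peribronchial difference was called (-2.01, adjusted p = 3.91e-07), and without DMSO replicate 2 it was -0.17. Adventitial Ccl2 was called without DMSO replicate 1 (-0.92, adjusted p = 0.0459) and without DMSO replicate 2 (-1.85, adjusted p = 0.000242). Mesothelial-like cells had 0, 13.8, 289 and 15.2 CPM of Ccl2 from 1, 16, 217 and 68 cells, so in DMSO replicate 1 alone they held 21.8% of all Ccl2 UMIs. The 5 mesothelial markers summed to 2.26 and 12.2 CPM in adventitial cells with BPTES, against 138 and 130.6 CPM with DMSO. Of these markers 2 were above 0 in every library, and Lrrn4 was at 0 in all 4. The adventitial cluster richer in Ccl2 (149 CPM pooled, against 20.85 in the other) made up 64.05 and 63.9% of that class with BPTES and 77.6 and 67.0% with DMSO. The part of the mesothelial markers and of this share in the lower adventitial Ccl2 was not tested.

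Alveolar fibroblast-like cells, among the largest holders of Ccl2 UMIs, had 17.9 and 52.0 CPM with BPTES and 19.0 and 23.6 with DMSO. The groups overlapped (log2 fold change 0.76, SE 0.42, edgeR adjusted p = 0.312), and BPTES replicate 2 alone was high. Their Ccl7 was at 5.85 and 14.6 CPM with BPTES and 4.42 and 4.75 with DMSO, higher in both BPTES libraries but not called (1.21, SE 0.37, edgeR adjusted p = 0.128). Without BPTES replicate 1 edgeR called both, Ccl2 at 1.35 (adjusted p = 0.00182) and Ccl7 at 1.73 (adjusted p = 0.00128). Without BPTES replicate 2 the values were -0.23 and 0.38. The cluster of this class that was richer in Ccl2 (54.3 CPM pooled, against 13.4 in the other) made up 39.7 and 40.03% of it with BPTES and 26.45 and 30.6% with DMSO, and the part of this in the differences was not tested.

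Neutrophil-like cells fell into a cluster of 2212 cells and a mixed cluster of 630 cells. The mixed cluster, 17.6 to 26.5% of the class, led with neutrophil genes (S100a9, S100a8, Il1b) but also with Lyz2, and its monocyte-marker levels were high. Its 6 classical monocyte markers summed to 1544 to 2174 CPM, against 246 to 370 CPM in the other cluster. Its cells were also deep, with medians of 26003 to 29725 UMIs against 8677.5 to 9539.5. Ccl2 in the mixed cluster was at 53.0, 57.2, 58.45 and 53.8 CPM, and the groups overlapped. Over the whole class Ccl2 was at 30.0, 32.5, 24.5 and 27.9 CPM, a log2 fold change of 0.19 (SE 0.13, edgeR adjusted p = 0.707), where 0.00844% of all genes were called.

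In the other cluster alone, a split chosen after the data were seen, Ccl2 was near the floor in DMSO and above it in BPTES. It stood at 11.05, 7.34, 1.09 and 1.45 CPM, from 49, 37, 7 and 8 UMIs. The DMSO values lay within the range of B-like cells. Of its cells, 2.80 and 2.98% of BPTES and 1.11 and 1.22% of DMSO cells had a UMI, and the share in B-like cells was 1.13%. Here Ccl2 passed the filter on low counts only through the BPTES libraries, where it is high, so its fitted log2 fold change of 2.67 (SE 0.42) is a description with no test. It rests on few cells: the 2 richest cells of each library held 42.9 and 48.6% of the BPTES and 28.6 and 37.5% of the DMSO UMIs, and without them Ccl2 was at 6.34, 3.79, 0.782 and 0.906 CPM. In the same cells the 6 interstitial macrophage markers, 5 of them above 0 in every library, summed to 7.22 and 11.7 CPM with BPTES and 5.15 and 5.24 with DMSO, and the 6 non-classical monocyte markers to 151 and 168 against 139.6 and 145, both higher with BPTES, while the 6 classical monocyte markers overlapped (246, 301, 265 and 370 CPM). The neutrophil markers were lower with BPTES (78090 and 80440 against 105600 and 110600 CPM). The part of these in the Ccl2 difference was not tested.

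The Ccl2 effect in classical monocyte-like cells was not shown to differ from that in neutrophil-like cells. In a fit over both classes with the library as a block, the difference of the effects was 0.43 on the log2 scale (SE 0.15, edgeR adjusted p = 0.698). In this fit 0.0157% of all genes were called. With 1 library left out the difference ran from 0.21 (without BPTES replicate 1) to 0.65 (without BPTES replicate 2). At resolutions 0.5 and 2 it was 0.034 and 0.012. Without the mixed cluster it turned to -2.02 (adjusted p = 0.0624, 0.0729% of genes called), with the same limit on Ccl2 in the larger cluster. Ccl7 in neutrophil-like cells, with scaled levels of 0.490, 1.62, 10.5 and 4.11 CPM, was lower in both BPTES libraries (-2.71, SE 0.60). The BPTES libraries alone would not have brought it past the filter on low counts, so this value is a description with no test. Of the mixed cluster's Ccl7 UMIs in the DMSO libraries, 80.8 and 78.6% lay in 2 cells.

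**Figure D3:**
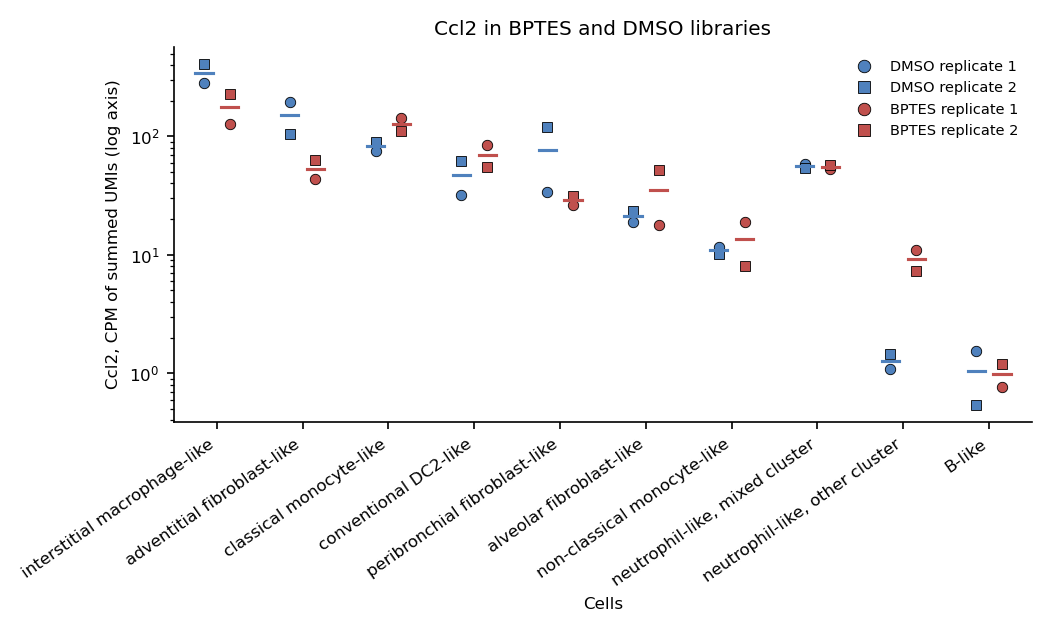
Ccl2 level (CPM of summed UMIs, log axis) in each library for 8 cell classes and for the 2 clusters of neutrophil-like cells, with circles for replicate 1, squares for replicate 2 and bars for the mean of the 2 libraries of a group. BPTES points are above DMSO points in classical monocyte-like cells and in the larger neutrophil cluster. They are below in interstitial macrophage-like, adventitial fibroblast-like and peribronchial fibroblast-like cells. B-like cells show the floor.

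The macrophage inflammatory protein genes Ccl3 and Ccl4 were highest in NK-like cells, cytotoxic lymphocytes that release both on contact with targets. There Ccl3 was at 564, 375, 566 and 549 CPM and Ccl4 at 1432, 1478, 1482 and 1593 CPM, and 418 of 746 cells had UMIs of both. Ccl4 was found in 88.4% of the Ccl3-bearing cells, beside 75.7% of all cells of the class. Ccl3 was found in 74.0% of the Ccl4-bearing cells, beside 63.4% of all. Depth was not separated here. The genes are neighbours 13.2 kb apart on opposite strands, Ccl3 at chr11:83647844-83649355 (minus) and Ccl4 at chr11:83662584-83664683 (plus), and over 23 classes each was the other's closest match (r = 0.96). Next for both was Itgax, the gene of CD11c. Ccl3 was at 168 to 373 CPM in interstitial macrophage-like, 81.8 to 206 in neutrophil-like and 73.4 to 141 in non-classical monocyte-like cells. Ccl4 was at 219 to 510 CPM in interstitial macrophage-like, 233 to 395 in DC2-like, 91.9 to 251 in neutrophil-like and 47.3 to 145 in non-classical monocyte-like cells. CD8 T-like cells had 76.3 to 141 CPM of Ccl4, and plasmacytoid dendritic-like cells, with 61 cells in all, 177 to 1588.

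Neither gene passed the main test in NK-like cells. For Ccl4 the log2 fold change was -0.08 (SE 0.08, edgeR adjusted p = 0.801) and for Ccl3 -0.26 (SE 0.16, adjusted p = 0.724), the latter with BPTES replicate 2 as the low library. With 1 library left out, Ccl3 ran from -0.57 (without BPTES replicate 1, where edgeR called it lower) to 0.017, where its sign turned. CD8 T-like cells had 114 and 76.3 CPM of Ccl4 with BPTES and 134 and 141 with DMSO (-0.50, SE 0.15, edgeR adjusted p = 0.262). This difference ran from -0.78 (without BPTES replicate 1, where edgeR called it lower) to -0.24 with 1 library left out. Of the class's 2 clusters, the one led by Lef1 had 1.30 CPM of Ccl4, and the other 158. The latter made up 71.1 and 62.0% of the class with BPTES and 79.2 and 85.9% with DMSO. Inside it Ccl4 was at 169 and 123.4 CPM with BPTES and 168.6 and 166.8 with DMSO, so that the groups overlapped.

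In monocytes and dendritic cells both genes were higher in both BPTES libraries, without a call by edgeR. Classical monocyte-like cells had 123 and 78.9 CPM of Ccl3 with BPTES and 21.1 and 49.3 with DMSO (log2 fold change 1.54, SE 0.35, edgeR adjusted p = 0.132). Their Ccl4 was at 90.2 and 107.9 against 27.5 and 69.9 CPM (1.05, SE 0.35, adjusted p = 0.234). The call on Ccl3 was made without BPTES replicate 2 (adjusted p = 0.0302), without DMSO replicate 1 (0.0232) and without DMSO replicate 2 (0.000143), and that on Ccl4 without DMSO replicate 2 (1.88, 2.51e-05), while without DMSO replicate 1 Ccl4 was at 0.54. Non-classical monocyte-like cells had 141 and 109 against 73.9 and 73.4 CPM of Ccl3 (0.79, SE 0.13, edgeR adjusted p = 0.187, DESeq2 adjusted p = 0.000152). Their Ccl4 was at 145 and 109.9 against 66.9 and 47.3 CPM (1.22, SE 0.18, edgeR adjusted p = 0.140, DESeq2 adjusted p = 3.68e-08), and edgeR called it without DMSO replicate 2 (adjusted p = 0.0255). In this class 19.4% of all genes were higher in both BPTES libraries.

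The shares of cells lay in the same order. After thinning, 17.3 and 13.3% of classical monocyte-like cells had a Ccl3 UMI with BPTES, beside 3.08 and 7.05% with DMSO. In non-classical monocyte-like cells it was 22.2 and 16.4% beside 10.8 and 11.6%. DC2-like cells had 68.5 and 93.9 against 25.5 and 48.9 CPM of Ccl3 (1.13, SE 0.28, edgeR adjusted p = 0.339), which was called without DMSO replicate 2 (adjusted p = 0.0233). Their Ccl4 was at 264 and 395 against 233 and 248 CPM (0.47, SE 0.17, adjusted p = 0.493), with 0.15 without BPTES replicate 2 and 0.73 without BPTES replicate 1. Of all genes in DC2-like cells, 20% were higher in both BPTES libraries. In the DC2-like class the 6 interstitial macrophage markers, 5 of them above 0 in every library, summed to 278 and 379 CPM with BPTES and 113 and 130.1 with DMSO, and their part in these differences was not tested.

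In interstitial macrophage-like cells the direction was the opposite. Ccl3 was at 234 and 168 CPM with BPTES and 339 and 373 with DMSO (log2 fold change -0.81, SE 0.16, edgeR adjusted p = 0.102, DESeq2 adjusted p = 0.000220), and edgeR called it without BPTES replicate 1 (-1.04, adjusted p = 0.0475). Ccl4 was at 355 and 219 against 510 and 450 CPM (-0.72, SE 0.22, adjusted p = 0.209) and Ccl7 also pointed down (-0.68, SE 0.29, adjusted p = 0.323). Both depended on single BPTES libraries: without BPTES replicate 1 Ccl4 was -1.09 and Ccl7 -0.30, and without BPTES replicate 2 they were -0.42 and -1.20. Called genes made up 0.29% of this class, and 24.3% of its genes were lower in both BPTES libraries than in both DMSO libraries.

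The makeup of this class differed between the groups as well. The sub-cluster led by Fn1 and Arg1, with 24.0 CPM of Ccl3 and 60.1 of Ccl4, made up 15.2 and 21.6% of the class with BPTES and 2.00 and 2.33% with DMSO, and the 6 classical monocyte markers, all of them above 0 in every library, summed to 2497 and 2645 against 1390 and 1348 CPM. The 6 NK markers, of the class highest in Ccl3 and Ccl4, summed to 42.0 and 8.11 CPM with BPTES and 92.1 and 66.9 with DMSO, and the 6 B markers to 99.1 and 78.1 against 367 and 316. Neither was particular to this class. B markers were also lower with BPTES in both monocyte classes, DC2-like cells (35.5 and 65.4 against 175 and 96.6 CPM) and adventitial cells, and overlapped in neutrophil-like cells. NK markers were also lower in classical monocyte-like and DC2-like cells and overlapped in the other classes compared. The part of free RNA in this was not tested. The class's own 6 markers summed to 6028 and 6082 CPM with BPTES and 6596 and 7633 with DMSO. The 4 DC2 markers were also lower with BPTES, at 215 and 223 against 232 and 428 CPM. The 6 non-classical monocyte markers were higher, at 476 and 410 against 308 and 379 CPM. So were the 6 alveolar macrophage markers, 4 of them above 0 in every library, at 188 and 160 against 74.2 and 139 CPM. The part of all of these in the chemokine differences was not tested. With that sub-cluster left out, a step chosen after the data were seen, Ccl3 was at 269 and 212 against 345 and 388 CPM, Ccl4 at 401 and 272 against 519 and 466 and Ccl2 at 147 and 284 against 291 and 424, still lower in both BPTES libraries. Ccl7 then overlapped between the groups (157 and 285 against 261 and 379.7 CPM). In the largest sub-cluster, led by Cadm1, which held 32.4% of the class's Ccl3 and 39.6% of its Ccl4, Ccl3 was at 497 and 502 against 570 and 708 CPM and Ccl4 overlapped at 1044 and 747 against 792 and 1095.

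The difference between the classes was itself tested, in comparisons chosen after the data were seen. The treatment effect on Ccl3 was higher in classical monocyte-like than in interstitial macrophage-like cells by 2.41 on the log2 scale (SE 0.30, edgeR adjusted p = 0.0196), where 1.12% of all genes were called. It was higher in non-classical monocyte-like than in interstitial macrophage-like cells by 1.62 (SE 0.12, adjusted p = 0.0187), and for Ccl4 by 1.97 (SE 0.15, adjusted p = 0.0187), in a fit that called 0.0234% of all genes. For Ccl2 the corresponding differences were 1.60 (adjusted p = 0.0687) and 1.39 (adjusted p = 0.566). For Ccl4 the difference between classical monocyte-like and interstitial macrophage-like cells was 1.90 (adjusted p = 0.107). DC2-like cells were compared with interstitial macrophage-like cells in the same way, in a fit that called 0.114% of all genes. These differences were 1.95 for Ccl3 (SE 0.36, edgeR adjusted p = 0.131), 1.17 for Ccl4 (adjusted p = 0.300) and 1.545 for Ccl2 (adjusted p = 0.266), none of them called. Without BPTES replicate 2 all 3 calls named first were lost, with differences of 2.50, 1.55 and 1.80 at adjusted p of 0.0852, 0.0740 and 0.0733. Without BPTES replicate 1 the first was lost (2.33, adjusted p = 0.126). With doublets kept the non-classical Ccl4 difference was 1.23 and was still called (adjusted p = 0.0490).

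The differences that were not called changed widely in size with single libraries. For Ccl2 in classical monocyte-like cells the difference from interstitial macrophage-like cells ran from 0.999 without BPTES replicate 1 to 2.22 without BPTES replicate 2. It was called without BPTES replicate 2 (adjusted p = 0.00824), DMSO replicate 1 (0.000946) or DMSO replicate 2 (0.0135), with doublets kept (0.0492) and at resolution 2 (0.0420). In non-classical monocyte-like cells the Ccl2 difference ran from 0.16 without BPTES replicate 1 to 2.24 without BPTES replicate 2, uncalled in each case, and with doublets kept it was 0.65. The classical Ccl4 difference was called at 1.15 without DMSO replicate 1 (adjusted p = 0.00463) and at 2.74 without DMSO replicate 2 (1.87e-05). For DC2-like cells, Ccl3 (2.45, adjusted p = 0.00318) and Ccl4 (1.84, adjusted p = 0.000766) were called without BPTES replicate 1, where Ccl2 was 0.85. Without BPTES replicate 2, Ccl3 (1.54, adjusted p = 0.0427) and Ccl2 (2.33, adjusted p = 0.00112) were called and Ccl4 was 0.58. The DC2 differences were also smaller when the cells were clustered otherwise, at 0.13 for Ccl2 and 1.10 for Ccl3 at resolution 2 and 0.76 for Ccl4 at resolution 0.5, and Ccl4 was 0.68 with doublets kept.

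Neutrophil-like cells gave no stable direction for Ccl4. Over the whole class it was at 91.9, 251, 162 and 164 CPM, with both BPTES libraries at the extremes (log2 fold change 0.0017, SE 0.36, edgeR adjusted p = 1). In the larger cluster alone it was at 43.3 and 48.8 CPM with BPTES and 68.2 and 95.1 with DMSO, and the test called it lower (-0.9955, SE 0.17, edgeR adjusted p = 0.0492, DESeq2 adjusted p = 0.000180). The edgeR fit called 0.695% of all genes, and the DESeq2 fit 6.72% of those with an adjusted p. That call was lost without BPTES replicate 2, while with 1 library left out the log2 fold change stayed between -1.21 and -0.75. The 2 richest cells held 26.8 to 43.5% of these UMIs, and without them the levels were 29.6, 35.9, 38.7 and 63.8 CPM. Without the mixed cluster, the effect on Ccl4 was higher in classical monocyte-like than in neutrophil-like cells by 2.15 (SE 0.24, edgeR adjusted p = 0.0216). Ccl3 over the whole class was at 110.7 and 206 against 90.9 and 81.8 CPM (0.80, SE 0.24, edgeR adjusted p = 0.432). Its log2 fold change ran from 0.31 to 1.165 with 1 library left out. In the larger cluster Ccl3 overlapped (20.8, 65.3, 24.2 and 42.3 CPM).

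**Figure D4:**
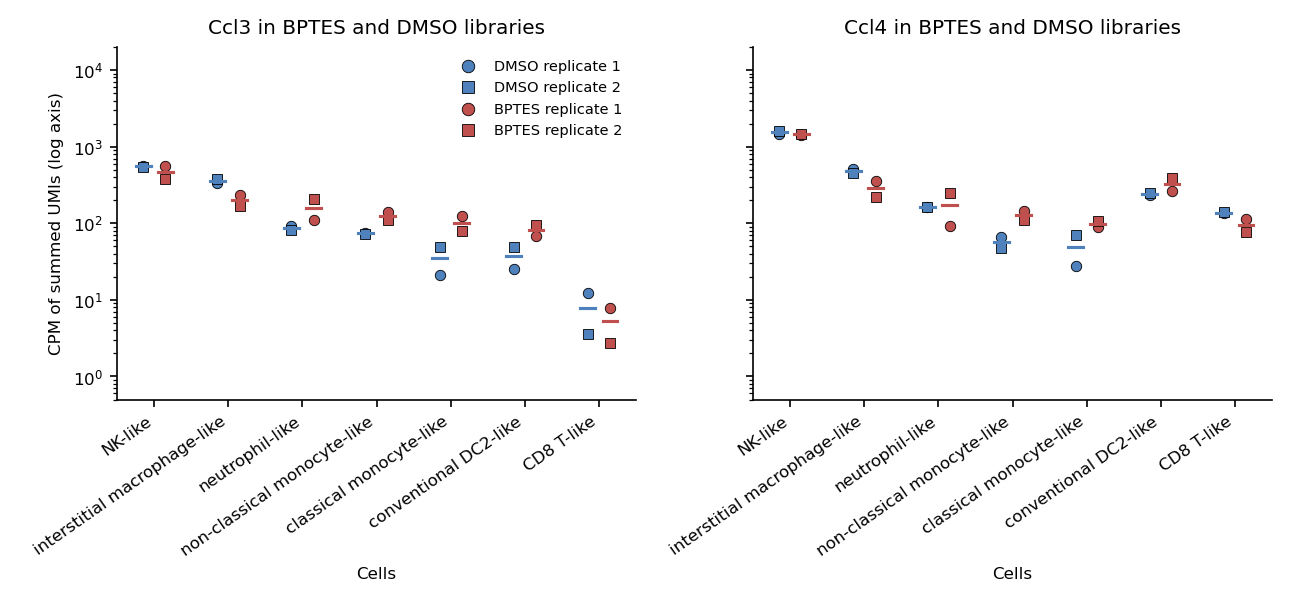
Ccl3 (left) and Ccl4 (right) in each library (CPM of summed UMIs, log axis) for 7 cell classes, with circles for replicate 1, squares for replicate 2 and bars for the mean of the 2 libraries of a group. BPTES points are above DMSO points for both genes in both monocyte classes and in DC2-like cells, and for Ccl3 alone in neutrophil-like cells. They are below for both genes in interstitial macrophage-like cells, and for Ccl4 alone in NK-like and CD8 T-like cells. NK-like cells lie highest.

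The Ccr1 ligands Ccl6 and Ccl9 were found together in monocytes, macrophages and dendritic cells. Their genes lie 9.24 kb apart on the minus strand, Ccl9 at chr11:83572919-83578636 and Ccl6 at chr11:83587882-83593087, in the same chemokine cluster as Ccl3 and Ccl4. RefSeq gives start regions (250 bases before to 50 after the start, GRCm38.p6) for 5 of the 10 genes. Those of Ccl6 and Ccl9 are shown because the levels of these genes went together and because they share letters near the start. Capitals mark the runs of 10 or more letters that occur in both.
Ccl6 (chr11:83593038-83593337, minus strand): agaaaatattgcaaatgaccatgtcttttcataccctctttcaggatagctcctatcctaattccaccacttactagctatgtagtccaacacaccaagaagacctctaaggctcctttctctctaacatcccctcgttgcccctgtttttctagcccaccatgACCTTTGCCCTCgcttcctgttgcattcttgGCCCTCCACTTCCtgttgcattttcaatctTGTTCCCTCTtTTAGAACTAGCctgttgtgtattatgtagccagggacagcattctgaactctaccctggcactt
Ccl9 (chr11:83578587-83578886, minus strand): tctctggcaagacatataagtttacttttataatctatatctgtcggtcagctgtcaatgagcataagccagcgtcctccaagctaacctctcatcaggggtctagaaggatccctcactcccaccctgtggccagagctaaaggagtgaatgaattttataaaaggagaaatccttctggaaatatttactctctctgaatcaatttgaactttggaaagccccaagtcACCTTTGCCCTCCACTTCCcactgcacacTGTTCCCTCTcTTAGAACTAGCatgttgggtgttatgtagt

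In the Ccl6 window 46 letters in 4 stretches recur in the Ccl9 window, and in the Ccl9 window 40 letters in 3 stretches. Among the other pairs of the 5 windows, none shared more than 1 run of 10 letters. Of the motifs searched on both strands, TATAAA was found 3 times in the Ccl9 window (13.6% of 32851 RefSeq windows hold it) and the AP-1 motif TGANTCA at 53 bases before its start (7.81%), and neither in that of Ccl6. A match in letters is not evidence of a used site.

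Ccl6 was at 1955, 1857, 2255 and 1834 CPM in neutrophil-like cells and at 1238, 1272, 1267 and 1120 CPM in classical monocyte-like cells, which held 33.3% and 30.5% of its UMIs. After thinning, 94.3% and 90.5% of the cells of these classes had a Ccl6 UMI, against 1.247% of general capillary endothelial-like cells. Alveolar macrophage-like cells, the resident macrophages of the air space, had 2905, 2746, 1019 and 2187 CPM, but from 96, 104, 13 and 81 cells. Interstitial macrophage-like cells had 1267, 1509, 1158 and 676 CPM. Within them Ccl6 ran against Ccl2: the sub-cluster led by Fn1 and Arg1 had 2181 CPM of Ccl6, and the one led by Cd163 had 330. The genes most like Ccl6 over the classes were Igsf6 (r = 0.99), the leukotriene pathway gene Alox5ap (0.985) and the inflammasome gene Nlrp3 (0.98). Ccl6 overlaps E230016K23Rik in the annotation.

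Ccl9 was at 424, 414, 451 and 392 CPM in classical monocyte-like cells, which held 50.5% of its UMIs, and at 401, 528, 418 and 316 CPM in interstitial macrophage-like cells. These ranges overlap, so the classes could not be ordered. Non-classical monocyte-like cells (123 to 136 CPM), DC2-like cells (114 to 153) and neutrophil-like cells (91.5 to 125) also overlapped among themselves. The Ccl9 of neutrophil-like cells lay mostly in their mixed cluster, at 215 CPM pooled, against 9.85 CPM in the larger cluster, where Ccl6 was at 2575 CPM. In classical monocyte-like cells 2217 of 2306 cells had UMIs of both genes, where 98.7% of all had one of Ccl6 and 96.6% one of Ccl9. Across 23 classes the pair had r = 0.94, and the closest match of Ccl9 was Fcgr3, an Fc receptor gene (0.98).

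Neither gene passed the test in the classes that hold most of it. Ccl6 gave a log2 fold change of -0.17 (SE 0.13, edgeR adjusted p = 0.745) in neutrophil-like and 0.10 (SE 0.08, adjusted p = 0.585) in classical monocyte-like cells. In interstitial macrophage-like cells both BPTES libraries were higher (0.62, SE 0.26, adjusted p = 0.326), by 0.26 without DMSO replicate 2 and 1.10 without DMSO replicate 1, and with the Fn1 and Arg1 sub-cluster left out they still were (1097 and 1302 against 1059 and 684 CPM), the margin to DMSO replicate 1 being small. Ccl9 gave 0.02 (SE 0.08, adjusted p = 0.930) in classical monocyte-like cells. In NK-like cells, a minor holder, Ccl9 was at 14.4 and 20.4 CPM with BPTES and 50.2 and 39.2 with DMSO (-1.34, SE 0.23, adjusted p = 0.369). It was called lower there without BPTES replicate 1, without BPTES replicate 2 and without DMSO replicate 2.

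The eotaxins Ccl11 and Ccl24 came from unrelated cells. Ccl11 was a stromal gene: adventitial fibroblast-like cells had 322, 308, 316 and 256 CPM and held 86.8% of its UMIs. Nearly all of that lay in 1 of their 2 clusters, where Ccl11 was at 491, 471, 387 and 366 CPM. Smooth muscle-like cells followed with 69.1, 66.1, 143 and 214 CPM, below the fibroblasts in every library. The genes most like Ccl11 over the classes were Osr2 (r = 0.95), Angpt4 (0.94) and the Wnt modulator gene Sfrp2 (0.94). Ccl11 (chr11:82057823-82062955, plus strand) follows Ccl7 at 10.3 kb, and all 3 genes of this group, Ccl2, Ccl7 and Ccl11, were expressed in adventitial fibroblast-like cells. Of those with a Ccl2 UMI, 67.05% also had one of Ccl11, beside 48.7% of all.

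The level of Ccl11 in adventitial fibroblast-like cells overlapped between the groups (log2 fold change 0.16, SE 0.13, edgeR adjusted p = 0.604). In the cluster with nearly all of it, Ccl11 was at 491 and 471 CPM with BPTES and 387 and 366 CPM with DMSO. That cluster, given above for Ccl2, was a smaller share of the class with BPTES, and neither difference was tested. In smooth muscle-like cells, with 317 cells in all, both BPTES libraries were lower (-1.32, SE 0.30, unadjusted p = 0.00498, adjusted p = 1). After thinning, the share of these cells with a Ccl11 UMI was 2.52 and 5.71% with BPTES and 8.0 and 4.76% with DMSO, so that the groups overlapped.

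Ccl24 (chr5:135569937-135573049, minus strand) was rare, with 1709 UMIs in all 4 libraries. Interstitial macrophage-like cells had 75.3, 37.4, 40.4 and 62.0 CPM, and the groups overlapped (log2 fold change 0.14, SE 0.33, edgeR adjusted p = 0.882). With 1 library left out the value ran from -0.42 to 0.56, so that its sign turned. Interstitial macrophage-like cells held 94.2, 79.5, 41.4 and 86.4% of the Ccl24 UMIs. After thinning, 7.95% of these cells had a Ccl24 UMI, beside 0 of the 3822 thinned B-like cells, which allows a share of up to 0.0965% (exact binomial, 95%). That limit is on cells with a UMI at this depth, not on cells that express the gene, and unthinned 0.0461% of B-like cells had a Ccl24 UMI. A sub-cluster of 42 cells led by Slc7a11, the cystine transporter gene, with Il1rn and Ass1, held 26.2% of the class's Ccl24 at 257 CPM. The genes most like Ccl24 were Fcna (r = 0.99), C3ar1 (0.95) and Cd5l (0.95), each also a macrophage gene.

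In classical monocyte-like cells Ccl24 was at 0.619, 2.44, 9.20 and 0.485 CPM, and 1 library set the comparison. DMSO replicate 1 had 130 UMIs there, against 8, 43 and 8 in the other libraries, and 94.6% of them lay in 2 cells. Without the 2 richest cells of each library the levels were 0.311, 1.31, 0.5001 and 0.365 CPM. The log2 fold change was -1.52 (SE 1.08, edgeR adjusted p = 0.549). It was -2.48 and called without DMSO replicate 2 (adjusted p = 0.0128), and -2.90 without BPTES replicate 2 (adjusted p = 0.448), and it turned to 1.74 without DMSO replicate 1 (adjusted p = 0.476).

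The Ccr4 ligands Ccl17 and Ccl22 belonged to dendritic cells. DC2-like cells had 726, 691, 283 and 511 CPM of Ccl17 and 389, 404, 240.3 and 367 CPM of Ccl22, and they held 91.3% and 92.1% of the UMIs of these genes. The genes lie 58.8 kb apart on the plus strand, Ccl22 at chr8:94745590-94751699 and Ccl17 at chr8:94810453-94812036, with 1 coding gene between them. Among the DC2-like cells 281 had UMIs of both, 75.7% of the Ccl17-bearing and 82.6% of the Ccl22-bearing cells. Of all cells of the class, 40.8% had a Ccl17 UMI and 37.4% a Ccl22 UMI. Ccl17 was most like Mir9-3hg (r = 0.99) and Cd207 (0.98), and Ccl22 most like Il12b (0.97) and Ccl17 (0.96). Their start regions are shown because both genes are known targets of cytokine signals in dendritic cells, STAT6 for Ccl17 and NF-kB for both. Capitals mark motif matches.
Ccl17 (chr8:94810203-94810502, plus strand): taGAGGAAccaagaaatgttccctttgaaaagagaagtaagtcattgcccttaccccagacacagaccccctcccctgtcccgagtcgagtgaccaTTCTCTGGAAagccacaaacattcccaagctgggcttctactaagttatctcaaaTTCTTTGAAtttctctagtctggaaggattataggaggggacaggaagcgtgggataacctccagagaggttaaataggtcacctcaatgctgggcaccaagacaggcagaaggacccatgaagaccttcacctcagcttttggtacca
Ccl22 (chr8:94745434-94745733, plus strand): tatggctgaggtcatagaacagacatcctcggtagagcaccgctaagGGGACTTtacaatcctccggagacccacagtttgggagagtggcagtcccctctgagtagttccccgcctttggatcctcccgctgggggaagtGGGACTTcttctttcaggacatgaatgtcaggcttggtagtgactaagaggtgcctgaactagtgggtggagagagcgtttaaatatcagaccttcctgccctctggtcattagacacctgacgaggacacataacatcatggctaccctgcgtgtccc

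The STAT motif with 4 letters between TTC and GAA, the spacing that STAT6 prefers, occurs in the Ccl17 window at 154 bases before the start (6.95% of 32851 windows hold it) and TTCNNNGAA at 99 before (8.3%). The ETS motif GAGGAA stands at 248 before the start (28.3%). In the Ccl22 window GGGACTT, the first part of a kappaB motif, stands at 203 and 109 bases before the start (5.44%). Neither window holds the longer kappaB motif that was searched (1.2% of windows). Nothing about the factors follows from letters alone.

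Sub-clustering without chemokine ligand genes divided the genes within the dendritic class, which also held cDC1 cells with Xcr1 and Clec9a and mature dendritic cells. Ccl22 was concentrated in 44 mature DC-like cells, with Fscn1 and the lymph-node homing receptor gene Ccr7 detected in 100% of them. They held 40.4% of the class's Ccl22 at 3715, 4198, 2191 and 2699 CPM. Ccl17 was highest in 145 cells led by Mgl2, with Cd209a in 86.9% of them, which held 34.6% of the class's Ccl17 at 1600, 1440, 733 and 863 CPM. In 74 cells with Xcr1 (93.2%) and Itgae, Ccl17 was at 1247 CPM and Ccl22 at 798 over the 4 libraries summed, most of it from DMSO replicate 2 (Ccl17 at 554, 1111, 108 and 2626 CPM). In 115 others with Xcr1 (97.4%) the levels were 264 and 53.6 CPM. Ccl4 did not follow Ccl22: it was at 627 CPM in those 115 cells and at 1.36 CPM in the mature DC-like cells.

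**Figure D5:**
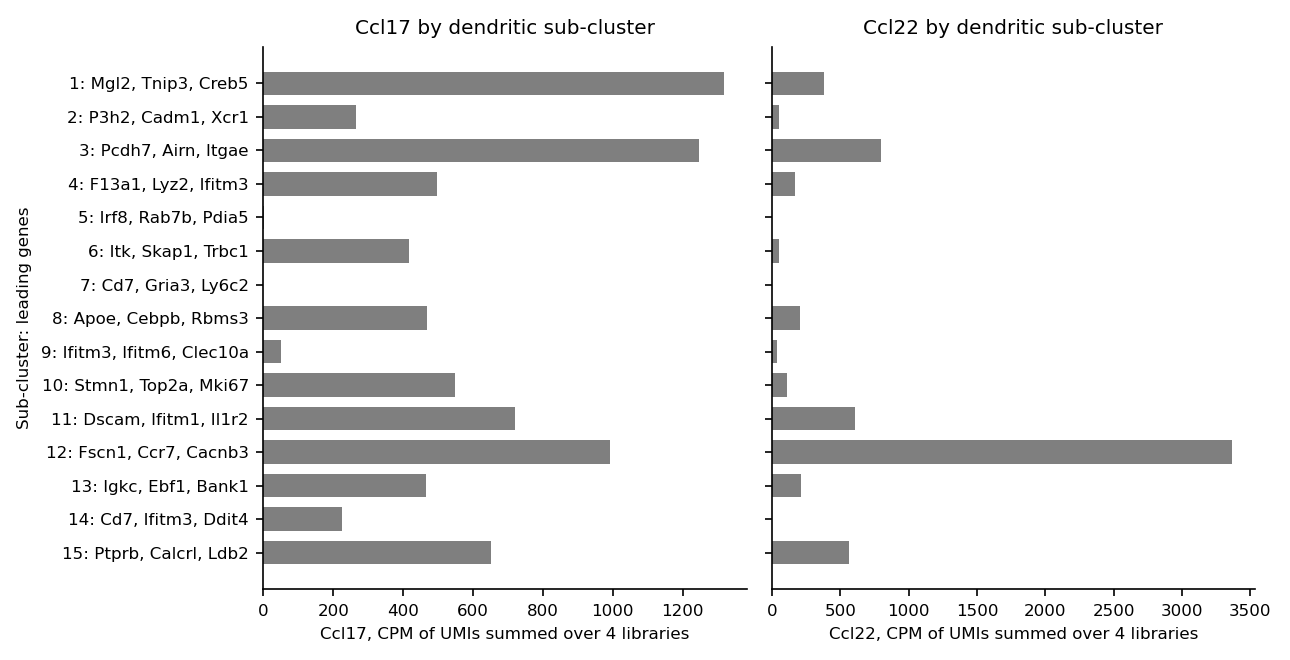
Ccl17 (left) and Ccl22 (right) in the 15 sub-clusters of conventional DC2-like cells with at least 20 cells, numbered by size and labelled by leading genes other than chemokine ligands. Bars are CPM of UMIs summed over the 4 libraries and have no error. Ccl17 is spread over many sub-clusters, highest in sub-clusters 1 (1317 CPM) and 3 (1247 CPM), and Ccl22 peaks at 3365 CPM in sub-cluster 12, the mature DC-like cells.

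Both genes were higher in both BPTES libraries over the class, without a call: Ccl17 by a log2 fold change of 0.85 (SE 0.23, edgeR adjusted p = 0.378) and Ccl22 by 0.40 (SE 0.17, adjusted p = 0.554). DMSO replicate 1 was the low library for both. Without DMSO replicate 2 they were called at 1.32 and 0.72 (adjusted p = 0.00305 and 0.0421), and without DMSO replicate 1 they were 0.50 and 0.15 and not called. The direction was the same inside the Mgl2-led sub-cluster for Ccl17 and inside the mature DC-like cells for Ccl22, with 6 to 15 mature cells a library. It did not hold throughout the class. Ccl22 overlapped in the Mgl2-led sub-cluster (433 and 373 against 211 and 401 CPM), and Ccl17 in the 74 cells with Xcr1 and Itgae. In the 115 others with Xcr1, Ccl17 was higher with BPTES (496 and 192 against 178 and 92.1 CPM) and Ccl22 overlapped (88.2 and 24.6 against 26.6 and 62.1). In interstitial macrophage-like cells Ccl17 was at 160, 11.3, 1.32 and 112 CPM and followed no group. B-like cells had 23.03 CPM of Ccl22 in BPTES replicate 1 and at most 0.532 in the other libraries, and of those 211 UMIs 99.5% lay in 2 cells.

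Among the tested classes, Ccr2 was highest in classical monocyte-like cells (714 to 1045 CPM), Ccr1 in neutrophil-like cells (576 to 665) and Ccr4 in CD4 T-like cells (47.7 to 98.7). Ccr3, the eotaxin receptor, did not exceed 18.7 CPM in any library of CD4 T-like cells, its highest class. The decoy receptor Ackr2, which takes up inflammatory CC chemokines, was highest in aerocyte endothelial-like cells (164 to 173 CPM).

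By edgeR's test, 0 of the 107 tested pairs of receptor and class were called in either direction (32 at an unadjusted p under 0.05), where over all pairs of gene and class 0.14% were called and 11.6% had such a p. Of 30 pairs of atypical and decoy receptors 0 were called (5 unadjusted), and of 273 pairs of NF-kB pathway genes 0 (71 unadjusted). Of 138 pairs of IL-4 and STAT6 target genes and class, 1 was called (27 unadjusted): Cish fell in AT2-like cells (log2 fold change -0.58, SE 0.10, edgeR adjusted p = 0.0494). Of 67 pairs of other CC chemokines, 2 were called (12 unadjusted) and both were Ccl5, a chemokine made by T and NK cells. It fell in CD8 T-like cells from 5391 and 5520 to 4083 and 3861 scaled CPM (-0.46, SE 0.05, adjusted p = 0.0363). The cluster of these cells that is led by Ccl5 made up less of the class in both BPTES libraries (71.1 and 62.0% against 79.2 and 85.9%), and the part of this in the Ccl5 difference was not tested. In AT2-like cells it fell from 14.8 and 26.9 to 2.44 and 3.53 scaled CPM (-2.84, SE 0.30, adjusted p = 0.0177), levels that compare with 4717 CPM in CD8 T-like cells. The median log2 fold change was -0.15 over the receptor pairs and -0.15 over the pairs of other CC chemokines, 6 of whose 11 genes were tested in some class.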

How the data were processed

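The deposited files hold UMI counts per gene and cell barcode, made by the authors with Cell Ranger 8.0.1 on mm10, per the submitters' processing notes. How reads on overlapping genes were assigned is not given in the sources used here. Cells were kept from 500 genes and 1000 UMIs upward, with mitochondrial UMIs of up to 10%. Doublets were scored with a re-implementation of the Scrublet method, and 0.4% per 1000 cells were removed. Cells were clustered on 2000 variable genes without chemokine ligands (40 components, 15 neighbours, Leiden, resolution 1) and named where the mean marker z-score was at least 1 and at least 3 markers were detected. Counts were summed per library and class and tested with edgeR 4.0.16 (R 4.3.3, TMM, quasi-likelihood). DESeq2 1.42.0, no filter on low counts, left-out libraries, a replicate block and other partitions were alternatives. The scripts were tested on data simulated from classical monocyte-like cells (12212 genes). There 83 of 100 changes of 1 on the log2 scale and 100 of 100 of 2 were recovered, with 6 false calls. The simulated spread was the same for all genes, and only genes with enough counts were changed. These rates were not measured for genes whose spread between libraries is wider.

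The text names all 10 genes, the members of the other fixed lists that were called in at least 1 class or had their levels described, and for each chemokine up to 3 genes of the most similar levels. The members, lists and comparisons were chosen with earlier results of these data known. Intervals cover counting error only. Depth was 260346570 to 342107092 UMIs a library.
Some items are not reported here.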

Additional observations from a re-analysis of the deposited data

Results flagged for a closer look

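Between monocyte-like classes and interstitial macrophage-like cells, the treatment effect differed for 3 results by a test of the difference itself, in comparisons chosen after the data were seen. The log2 fold change of Ccl3 was higher by 2.41 in classical monocyte-like than in interstitial macrophage-like cells. It was higher by 1.62 in non-classical monocyte-like than in interstitial macrophage-like cells, and for Ccl4 the same difference was 1.97. Inside single classes, edgeR's test called neither gene in any of these 3 classes. With the mixed neutrophil cluster left out, the log2 fold change of Ccl4 was also higher by 2.15 in classical monocyte-like than in neutrophil-like cells (edgeR adjusted p = 0.0216). With the whole neutrophil-like class that difference was 1.27 and was not called (edgeR adjusted p = 0.681). With 1 library left out it ran from 0.62 (without DMSO replicate 1) to 2.02 (without DMSO replicate 2). It was called at resolutions 0.5 (1.83) and 2 (1.915). The libraries on which the first 3 calls rest, and the makeup of the macrophage class, are given with the results above.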

How the results depend on the processing

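Among the tested classes, the one with the highest level was the same for all 10 genes without the 2 richest cells of each class and library and by the share of cells thinned to 3000 UMIs, and for 8 of 10 by the unthinned share. Over all pairs of gene and class, the number of calls was 0, and it was 5 with DESeq2, 32 without the filter on low counts, 1 with a replicate block, 1 with doublets kept, 2 without the mixed neutrophil cluster and 6 to 15 with 1 library left out. The share of all genes called was 0.14% in the main test and in that order 1.46, 2.72, 1.37, 0.234, 0.695 and 0.331 to 1.48%. The 2 calls without the mixed neutrophil cluster include Ccl2, which passed the filter there only through the BPTES libraries. That value is a description with no test. The 5 DESeq2 calls include Ccl7 in neutrophil-like cells, which passed the filter mainly through the DMSO libraries and has the same limit. With 1 library left out, the lone library of its group is assumed to vary like the other group. Ccl2 in classical monocyte-like cells (log2 fold change 0.65) was called with DESeq2 (0.65) and without the filter (0.66), and ranged from 0.46 to 0.83 with 1 library left out. Ccl2 in non-classical monocyte-like cells turned with doublets kept (-0.26) and ranged from -0.39 to 0.83 with 1 library left out. In neutrophil-like cells Ccl2 was 2.67 without the mixed cluster, and Ccl3 was 0.80 and called without the filter. Ccl24 in classical monocyte-like cells was -1.52 and called without the filter, and ranged from -2.90 to 1.74 with 1 library left out. Ccl4 in neutrophil-like cells, near 0, turned with DESeq2 (-0.0061), without the filter (-0.0017), with a replicate block (-0.15), with doublets kept (-0.62), at mitochondrial limits of 5% (-0.64) and 20% (-0.0048), at resolutions 0.5 and 2 (both -0.72), with chemokines among the clustering genes (-0.035) and without the mixed cluster (-0.9955), and ranged from -0.88 to 0.54 with 1 library left out. The Ccl2 difference between classical monocyte-like and neutrophil-like cells turned with doublets kept (-0.079) and without the mixed cluster (-2.02). The causes were not tested.

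Of the values of the main results under these alternatives, 90 kept direction and side of the threshold, 17 turned direction, 10 counts moved and 8 passed the threshold. The 8 include Ccl2 in neutrophil-like cells without the mixed cluster, a description with no test. Of the values of other genes in single classes and of other differences between classes, 304 kept direction and side, 50 passed the threshold and 4 no longer did. All 4 were differences of the treatment effect between monocyte-like and interstitial macrophage-like cells. Same-numbered libraries correlated from -0.146 to 0.101 over 23 classes (under -0.1 in 3, over 0.1 in 1). No pairing by number was seen in this, and a shared batch was not tested. With the block 1 pair was called, Ccl3 in DC2-like cells (adjusted p = 0.0207). With the numbers crossed, an alternative chosen after the data were seen, 10 pairs were called, and 1.02% of all pairs. With 2 libraries a group, a difference that is not called is not shown to be absent.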

Other observations

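Among the CC chemokines outside the 10 genes, Ccl8 and Ccl12 were highest in interstitial macrophage-like cells (100.1 to 279 and 41.8 to 156 CPM). Ccl5 was highest in NK-like cells (8480 to 11670 CPM), and Ccl25 in ciliated-like cells (28.2 to 31.4 CPM). Ccrl2, a receptor-like protein that presents chemerin, was highest in neutrophil-like cells (401 to 563 CPM). Of the IL-4 and STAT6 target genes, Retnla ranged from 48.4 to 555 CPM and Arg1 from 94.2 to 748 CPM between the libraries of interstitial macrophage-like cells.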
